A study of Mus musculus with 18 samples.

Results

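The region described here is the part of mouse chromosome 12 that lies more than 10 Mb from the intronic enhancer Eμ of the immunoglobulin heavy chain locus (Igh), chr12:3000000-103426024 in the mm10 build. Contacts of the enhancer were read by 4C-seq, in which the DNA fragments ligated to a single bait fragment are amplified by inverse PCR and sequenced; the bait is at chr12:113426025-113426048, near the telomeric end of the chromosome, and was the chromosome 12 end with the most reads in each of the 12 libraries with counts. The members are all fragment ends in that interval that were listed in any library, chosen by position alone. They number 35088 of the 440025 ends listed in the series and of the 56916 listed on chromosome 12. Each library listed between 2713 and 7361 of them, and the 12 libraries with read counts held between 159883 and 1391214 reads on them.

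All libraries came from mature splenic B cells of mice that lacked CD43 at the surface, fixed in 2% formaldehyde and cut first with DpnII and then with Csp6I. The libraries form 6 groups of 3. Wild-type (WT) and Med1 mutant cells were taken resting on day 0, after 2 days of culture with LPS and IL4, or after 2 days with LPS alone. The labels name the mutant genotype only as Med1 Mutant, without the allele, a Cre driver or the age of the mice, and do not say that the 3 libraries of a group came from separate animals, so p-values measure the spread between libraries, which may be technical. The titles of the WT resting and LPS+IL4 libraries read WTKO while their genotype label reads WT, which was followed, and for replicate 2 of the WT LPS+IL4 group the culture text speaks of IL4 together with anti-CD40. 4C carries no measure of expression, so neither the cell type nor the genotype could be checked against marker genes. The LPS libraries were deposited as lists of ends without counts, so a listed (covered) end is the common measure over all 18 libraries and reads are compared only among the 12 others.

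Depth differed with genotype. The 12 counted libraries held 2470497 to 21074434 reads; the deepest was mutant LPS+IL4 replicate 2, every other mutant library had at most 3378893 and every WT library at least 3738095. The libraries also fell into 2 sets that no label names: near the bait, 57 ends reached 50 reads in all 6 libraries of one set and in none of the other, against 5 ends for the next such split. One set held replicate 1 of the mutant and replicates 1 and 2 of the WT on both days, the other held mutant replicates 2 and 3 and WT replicate 3. Values within each set, or with the set as a block, are given beside the results that differ by genotype. Reads are PCR products without molecular identifiers and are not independent molecules.

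In a 4C profile contacts thin out with distance along the chromosome, because nearby segments of a polymer meet more often. Far beyond that decay, active gene-rich segments of a chromosome tend to meet other active segments, while gene-poor segments gather at the nuclear periphery. Eμ is an active enhancer in B cells. MED1 is a subunit of Mediator, the coactivator complex that links transcription factors bound at enhancers to RNA polymerase II. LPS, a Toll-like receptor ligand, and the cytokine IL4 drive resting B cells into growth, division and class switching of the heavy chain.

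Each member is the 24-bp end of a DpnII fragment. To show what was counted, the ends are given that lay in the promoter window of a gene (250 bases before to 50 after its start, RefSeq sequence of GRCm38.p6, which is mm10), in a 1 Mb bin whose reads changed in a comparison below, and in at least 6 libraries. There were 9 such ends. They are written 5′ to 3′ on the plus strand of the chromosome, with the DpnII site in capitals, and all 148 far ends inside promoter windows of the region adjoined such a site. The coordinates are those of the 24-bp end and leave out the 4 bases of the site.
Lin52, chr12:84451448-84451471: tccctgctaggggcgtggcttgcgGATC
Lin52, chr12:84451476-84451499: GATCctcgctttcccgccgacggttggt
Ylpm1, chr12:84996095-84996118: aaaactaaacccatagggcgttagGATC
Fos, chr12:85473665-85473688: cggaaggtctaggagaccccctaaGATC
Churc1, chr12:76765515-76765538: GATCgtgtgcgacaaaatcgatatctca
Sptlc2, chr12:87388390-87388413: accaatccaaaggcgagaggggcgGATC
Sel1l, chr12:91849229-91849252: GATCgccccaccccacacatagtcacgc
Kcnk10, chr12:98575342-98575365: ctgggaccgcttggcgctggctgcGATC
Lgmn, chr12:102439299-102439322: ttcctgtcggggtgtttttgttcaGATC
The 2 ends of Lin52, which encodes a subunit of the MuvB core complex, flank one DpnII site 60 and 32 bases before the gene start. The first of them was listed in 8 of 18 libraries, with 72 reads in the WT resting libraries together, 44 in WT LPS+IL4, 16 in mutant resting and 0 in mutant LPS+IL4. The end before Kcnk10, a potassium channel gene, was listed in none of the 6 resting libraries and in 5 of the 6 LPS+IL4 libraries, with 280 WT and 606 mutant reads. A single library held 560 of these 886 reads, and the end was shown because its bin changed between the days. The Fos end, 225 bases before the start of this immediate early transcription factor gene, was listed in 7 libraries with 10 reads in all. Single far ends were therefore sparse: 61.0% of the 35088 ends appeared in just 1 library, and those ends carried a mean of 36.7% of a library's far reads (range 15.1 to 43.7%). Libraries of the same group shared 15.2 to 34.8% of their far ends. Summed over 1 Mb bins, the profiles of libraries of a group were alike, with Pearson r across the 101 bins of 0.776 to 0.901 for reads and 0.902 to 0.956 for covered ends; bins are not independent replicates, and these values are a description.

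The share of chromosome 12 reads that lay beyond 10 Mb was lower after LPS+IL4 than at rest. On covered ends the change was not called as reported, and its call depended on depth and on the total used. Of the reads on chromosome 12 more than 5 kb from the bait, the far region held 16.4, 17.3 and 14.0% in the WT resting libraries (15.9 ± 1.74, SD, n = 3) and 14.2, 13.3 and 11.7% after LPS+IL4 (13.1 ± 1.24). In the mutant it held 19.8, 16.3 and 17.0% at rest (17.7 ± 1.87) and 14.7, 13.6 and 12.0% after LPS+IL4 (13.5 ± 1.36). The mutant groups did not overlap, and the WT groups did. Across both genotypes the share fell by 3.53 percentage points, from 16.8 to 13.3% (two-sided exact permutation test within genotype, p = 0.01, adjusted p = 0.0333 over 20 tests). The call did not hold when single ends were capped at the 99th percentile (−2.77 points, adjusted p = 0.0667) or when any of WT resting replicate 2, WT LPS+IL4 replicate 2 or mutant LPS+IL4 replicate 3 was left out (adjusted p = 0.06 each). As a share of all reads of the library the change was −0.584 points (adjusted p = 0.3125). The share of covered ends went from a mean of 43.7 to 40.5% in the WT, without overlap, and from 44.3 to 43.2% in the mutant, with overlap (−2.16 points over both, adjusted p = 0.307). This fall was called at equal depth (−3.43, adjusted p = 0.02) and without mutant LPS+IL4 replicate 2, the deepest library (−3.11, adjusted p = 0.0333). As a share of all covered ends of the library the far region was higher by 0.249 points (adjusted p = 0.421). The mutant share was 1.09 points above the WT share over both days (adjusted p = 0.357), and its share of covered ends 1.67 points above (adjusted p = 0.357).

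Set against the next nearer zone, the separation of the days was wider. The log2 ratio of reads beyond 10 Mb to reads at 1 to 10 Mb (8415 listed ends) was 1.94 ± 0.0852 in WT resting and 1.21 ± 0.0996 in WT LPS+IL4 libraries, and 1.80 ± 0.0608 and 1.30 ± 0.0475 in the mutant. Neither genotype's days overlapped. The ratio fell by 0.62 on the log2 scale over both genotypes (exact p = 0.005, the smallest that 400 arrangements allow, adjusted p = 0.025), and the ratio of covered ends fell by 0.56 (same p-values). The nearer zone contributed to it: in the WT the 1 to 10 Mb zone went from 4.14 to 5.65% of chromosome 12 reads, in the mutant from 5.08 to 5.46%.

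The zones more than 20 Mb away lost reads after LPS+IL4, while in the WT the nearest far zone gained them. At 10 to 20 Mb from the bait (chr12:93426025-103426024), WT resting libraries held 2456, 2920 and 1928 RPM per Mb (reads scaled to the chromosome 12 reads more than 5 kb from the bait), and WT LPS+IL4 libraries 4213, 3658 and 3239. At 20 to 30 Mb the same libraries held 4128, 3757 and 3218 at rest and 3020, 2832 and 2575 after LPS+IL4. In all 6 resting libraries of both genotypes the 20 to 30 Mb zone was denser than the 10 to 20 Mb zone, although it is farther away, and in all 6 LPS+IL4 libraries it was less dense. Protein-coding genes number 10.6 per Mb at 20 to 30 Mb against 5.0 per Mb at 10 to 20 Mb. Beyond 75 Mb the density in the WT went from 810 ± 31.7 to 523 ± 27.8, and in the mutant from 885 ± 61.9 to 536 ± 25.8.

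**Figure D1:**
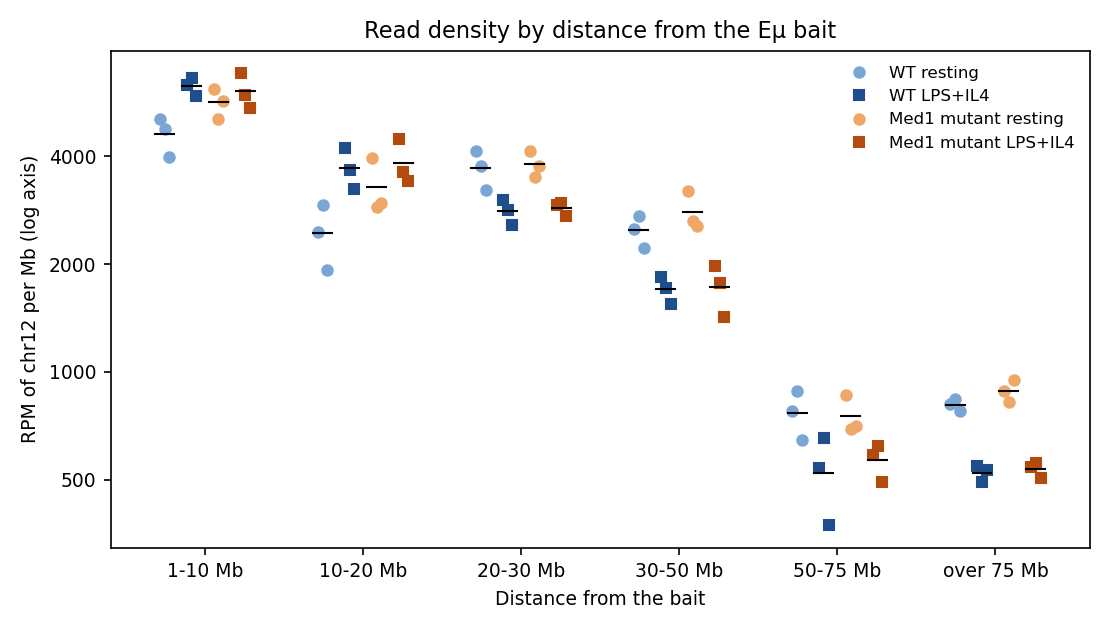
RPM of chromosome 12 reads per Mb (log axis) in 6 distance zones from the Eμ bait; each point is a library and each bar a group mean (n = 3). The resting libraries (circles) peak at 20 to 30 Mb within the far region, where WT resting has a mean of 3701, and the LPS+IL4 libraries (squares) decline from 10 to 20 Mb, where WT LPS+IL4 has a mean of 3703.

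In edgeR's quasi-likelihood test over 8 zones of the chromosome, all 5 far zones changed in the WT, where 87.5% of all zones were called. The 10 to 20 Mb zone rose by a log2 value of 0.61 ± 0.18 (SE, adjusted p = 0.0059), while the zones at 20 to 30, 30 to 50 and 50 to 75 Mb fell by 0.40, 0.55 and 0.56 and the zone beyond 75 Mb fell by 0.63 ± 0.09 (adjusted p = 1.4e-04). In the mutant 3 of the 5 far zones fell, with 50% of all zones called: 20 to 30 Mb fell by 0.41, 30 to 50 Mb by 0.70 ± 0.14 (adjusted p = 8.6e-04) and over 75 Mb by 0.72 ± 0.09 (adjusted p = 3.3e-05). Its 10 to 20 Mb zone, at 3965, 2886 and 2960 at rest and 4467, 3615 and 3418 after LPS+IL4, differed by 0.23 ± 0.17 (adjusted p = 0.267). The mutant 50 to 75 Mb zone was not called (−0.41 ± 0.19, adjusted p = 0.0784), but was with the library set as a block (−0.40, adjusted p = 0.0038). When each library was scaled to its far reads alone, the 10 to 20 Mb zone was higher in both genotypes (0.89 in the WT, 0.63 in the mutant), and the WT 20 to 30 and 50 to 75 Mb zones were no longer called (−0.11 and −0.28). Nor was the mutant 20 to 30 Mb zone (−0.0089, adjusted p = 0.906), and the mutant 50 to 75 Mb zone stood at −0.016 (adjusted p = 0.906). No zone changed direction between the days under that scaling. On covered ends the mutant 10 to 20 Mb zone was called, at 0.41, and the WT 20 to 30 Mb zone was not (−0.09, adjusted p = 0.244). The mutant 50 to 75 Mb zone stood at −0.030 there (adjusted p = 0.704). The mutant 20 to 30 Mb zone was not called on covered ends either (−0.033, adjusted p = 0.704). Its call was also lost with DESeq2 (−0.16, adjusted p = 0.117) and with ends capped at the 99th percentile (−0.22, adjusted p = 0.0686).

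Between genotypes at rest no far zone was called in that test, with 12.5% of all zones called. The mutant 10 to 20 Mb zone had the largest difference of the far zones, 3270 ± 603 against 2435 ± 496 in the WT (log2 0.43 ± 0.18, adjusted p = 0.0816). With the library set as a block it was called, at 0.56 (adjusted p = 5.7e-06), and so was the 30 to 50 Mb zone at 0.25 (adjusted p = 0.0102). After LPS+IL4 no far zone differed between genotypes. The change with culture in the 10 to 20 Mb zone did not differ between genotypes in the test of the interaction (−0.38, adjusted p = 0.407), but was called there with the library set as a block (−0.38, adjusted p = 0.0157).

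The decay of contacts with distance steepened after LPS+IL4 in both genotypes. It was summarised per library as the slope of log10 reads per Mb against log10 distance over the 101 bins, where −1 means that density is inversely proportional to distance. WT resting libraries had slopes of −0.788, −0.728 and −0.702 (−0.739 ± 0.0444) and WT LPS+IL4 libraries −1.189, −1.240 and −1.222 (−1.217 ± 0.0261). Mutant resting libraries had −1.101, −0.947 and −0.920 (−0.989 ± 0.0975) and mutant LPS+IL4 libraries −1.333, −1.171 and −1.264 (−1.256 ± 0.0811). The slopes of the days did not overlap in either genotype, and the slope fell by 0.372 (exact p = 0.005, the smallest possible, adjusted p = 0.025). The slope of covered ends, which does not weigh an end by its reads, fell by 0.240 (same p-values), from −0.492 ± 0.0108 to −0.788 ± 0.0202 in the WT and from −0.602 ± 0.0793 to −0.786 ± 0.0544 in the mutant. Within the library sets the change of the read slope was −0.344 and −0.403. Without mutant LPS+IL4 replicate 3 the adjusted p of the slopes and of the ratios to the 1 to 10 Mb zone was 0.05.

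**Figure D2:**
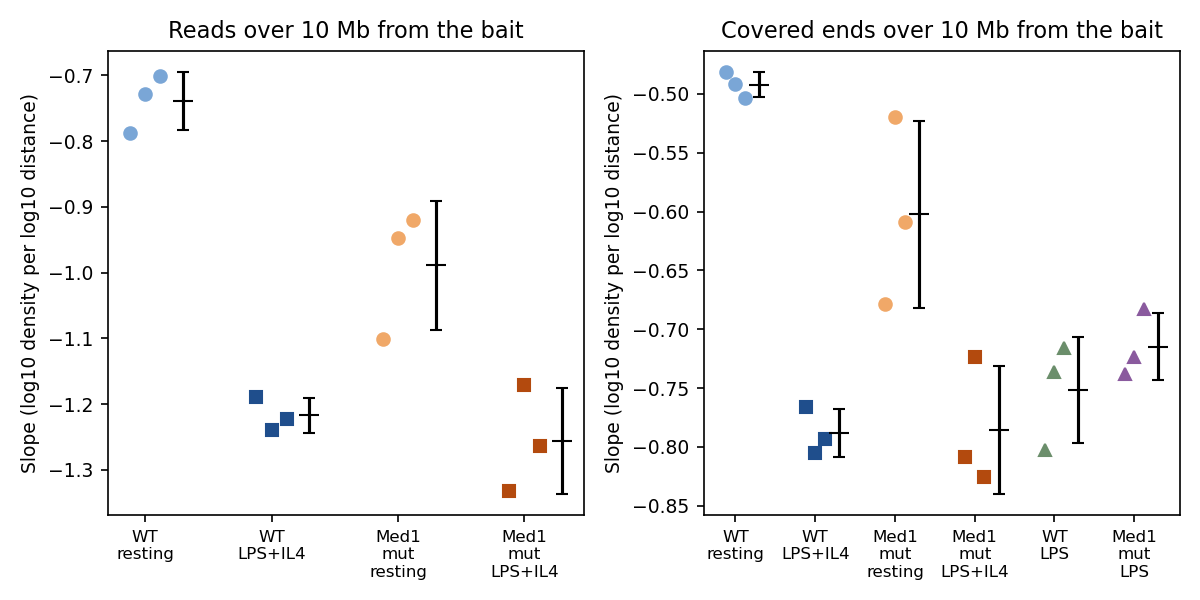
Slope of log10 density against log10 distance over the bins beyond 10 Mb, for reads (left, 4 groups) and covered ends (right, 6 groups); each point is a library, and the black mark gives mean ± SD (n = 3). Slopes of LPS+IL4 libraries lie below those of resting libraries of the same genotype in both panels, and mutant resting libraries lie below WT resting ones.

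The resting mutant was steeper than the resting WT, without overlap for reads or covered ends, and the genotypes overlapped after LPS+IL4. With 3 libraries against 3 the exact permutation test cannot go below p = 0.1. Over both days the mutant slope was 0.1445 below the WT slope (−0.1445, exact p = 0.025, adjusted p = 0.0714), and this difference was called when mutant LPS+IL4 replicate 2, the deepest library, was left out (−0.166, adjusted p = 0.02). Within the library sets it was −0.231 and −0.113. For covered ends it was −0.0539 (adjusted p = 0.307), or −0.0694 (adjusted p = 0.025) without that deepest library, and within the sets −0.107 and −0.0211. The change with culture was −0.478 in the WT and −0.267 in the mutant. The test of this difference (0.211, exact p = 0.1, the smallest possible, adjusted p = 0.32) took differences between same-numbered libraries, although it is not known that the numbers pair the libraries.

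Far reads, per Mb of length, were denser in gene-rich bins. The region was cut into 101 bins, of which 48 held more than 4 protein-coding genes by RefSeq (gene-rich) and 53 held 4 or fewer; 16 held none and the richest held 29 of the 535 genes. Gene-rich bins make up 47.2% of the length and hold 69.6% of the listed ends. They held 78.9, 79.2 and 78.9% of far reads in the WT resting libraries (79.0 ± 0.193), and 76.3 ± 1.45% in the mutant resting libraries (74.6 to 77.4), so these groups did not overlap. After LPS+IL4 the share was 76.9 ± 1.06% in the WT (75.9 to 78.0) and 75.1 ± 1.63% in the mutant (73.3 to 76.6). The mutant share was lower than the WT share by 2.27 percentage points over both days (exact p = 0.01, adjusted p = 0.0333, means 77.9 and 75.7%), and within the library sets by 1.90 and 2.04 points (−1.90 and −2.04). This call did not hold when genes of any type defined the classes (−2.41, adjusted p = 0.0875), when only the bins with the most and the fewest genes were compared (−2.29, adjusted p = 0.0667), or when any of mutant LPS+IL4 replicate 3, WT LPS+IL4 replicates 1 and 2 or WT resting replicates 2 and 3 was left out (range −2.65 to −1.84 over all 12 such fits). On covered far ends the mutant share differed from the WT share by −0.806 points (exact p = 0.285, adjusted p = 0.369), with overlap on both days. The change with culture in the gene-rich share of reads was −1.64 points (adjusted p = 0.0875), and −2.05 (adjusted p = 0.0429) without mutant resting replicate 3.

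**Figure D3:**
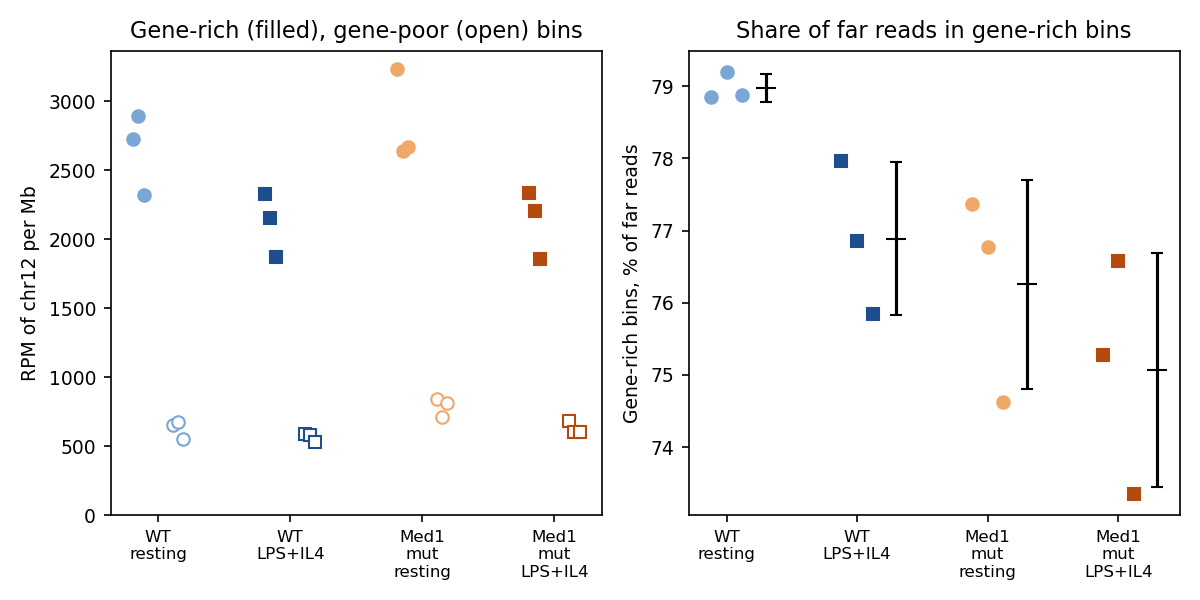
Left, RPM of chromosome 12 reads per Mb in gene-rich (filled) and gene-poor (open) bins; right, gene-rich bins as a percentage of far reads, with mean ± SD (n = 3); each point is a library. In every library gene-rich bins are denser than gene-poor bins, and WT resting libraries sit at 78.9 to 79.2%.

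In density, gene-rich bins of the WT resting libraries held 2648 ± 295 RPM per Mb and gene-poor bins 630 ± 65.6. After LPS+IL4 the WT values were 2120 ± 230 and 568 ± 29.5. In the mutant, gene-rich bins went from 2846 ± 334 to 2133 ± 247 and gene-poor bins from 791 ± 68.6 to 631 ± 47.8. Gene-rich bins also hold more ends, 69.6% of those listed, and more covered ends: WT resting replicate 1 covered 2493 ends there and 1226 in gene-poor bins. As a share of the listed ends, WT resting libraries covered 10.3% in gene-rich bins and 10.8% in gene-poor bins, and mutant resting libraries 9.41 and 10.1%. Covered ends in gene-rich bins carried more reads each, 98.1 against 56.2 in WT resting and 65.8 against 43.3 in mutant resting libraries. Across the 101 bins, the number of genes had r = 0.637 (Spearman 0.621) with reads per Mb, r = 0.630 (0.591) with listed ends per Mb and r = −0.422 (−0.483) with the covered share of listed ends; all bins share the same libraries. The bin of Lpin1, Greb1 and E2f6 (chr12:16000001-17000000) had the lowest covered share, 7.56%, and that of Lrfn5 (chr12:61000001-62000000), a neuronal adhesion gene, the highest, 18.8%, though it ranked 80 of 101 by reads. A listed end is one seen in any library, so bins with many ends seen once have a low covered share by construction.

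Per 1 Mb bin, the edgeR test called 12 of the 101 far bins between the days in the WT, 4 higher and 8 lower, where 18.5% of all bins tested on the chromosome were called, 10.9% higher and 7.56% lower. In the mutant it called 10, 2 higher and 8 lower, where 11.8% were called, 4.2% higher and 7.56% lower. Both genotypes shared 6 called bins, and the 2 comparisons share no library. Of these, 10 of the 12 and 9 of the 10 were gene-rich, against 48 of all 101 far bins; gene-rich bins also held more reads each. The median log2 change over all tested bins was −0.29 in the WT and −0.34 in the mutant, so single bins are read against a general decline. The split into higher and lower calls depends on the scaling: with far reads as library size 15 bins were called in the WT, 9 of them higher (60.0% against 33.3%), and 13 in the mutant, 7 of them higher (53.9% against 20%).

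**Figure D4:**
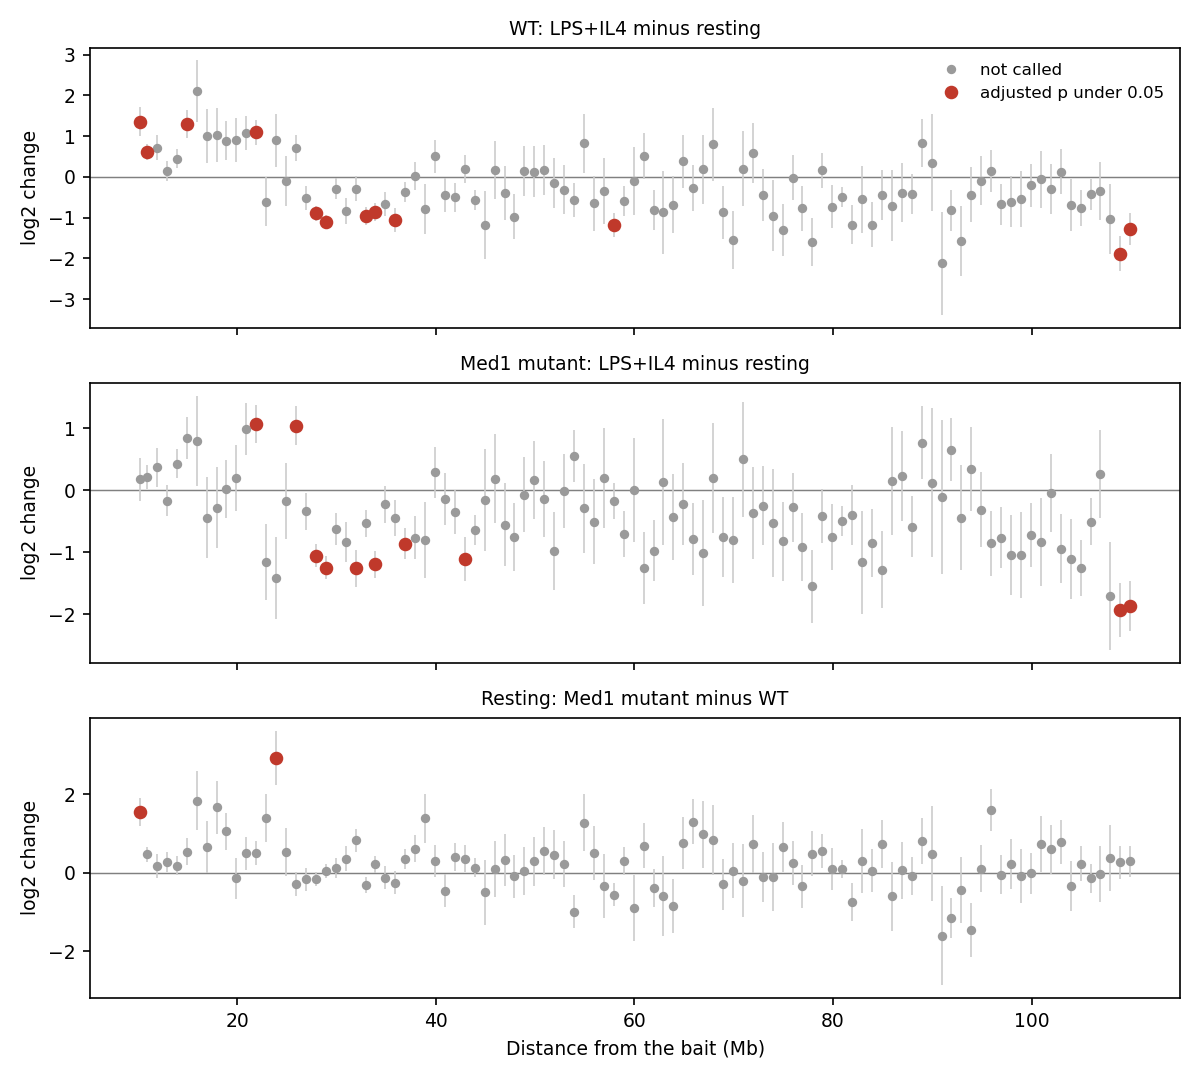
log2 change of reads per 1 Mb bin against distance from the bait in Mb, with SE as grey bars, for LPS+IL4 minus resting in the WT (top) and in the Med1 mutant (middle) and for mutant minus WT at rest (bottom); red points have an adjusted p under 0.05 in edgeR's quasi-likelihood test. Red points above 0 in the top panel lie at the near end of the distance axis, and the most negative red points of both upper panels lie at its far end.

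The bins that fell furthest were at the centromeric end of the region, farthest from the bait. The bin chr12:4000001-5000000, with 16 genes including Itsn2, an endocytic scaffold gene, held 3024, 1437 and 2288 RPM in the WT at rest and 706, 510 and 609 after LPS+IL4, a log2 change of −1.89 ± 0.43 (adjusted p = 0.0041). In the mutant it went from 2343, 2100 and 3667 to 661, 1175 and 295 (−1.93 ± 0.43, adjusted p = 0.0038). Its neighbour chr12:3000001-4000000, which holds Dtnb and Asxl2, went from 957, 2787 and 1623 to 833, 683 and 694 in the WT (−1.28, adjusted p = 0.024) and from 2131, 2337 and 2068 to 395, 673 and 725 in the mutant (−1.87 ± 0.41, adjusted p = 0.0029). All 6 resting libraries lay above all 6 LPS+IL4 libraries in both bins. The WT call of the Dtnb bin did not hold without WT resting replicate 2 (−0.81, adjusted p = 0.224), nor without WT LPS+IL4 replicate 2 or 3, and its mutant call did not hold on covered ends (−0.43, adjusted p = 0.0857).

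Some of the bins with the most far reads fell too. The bin chr12:84000001-85000000, the richest in genes with 29, holds Lin52 and Aldh6a1, a gene of valine catabolism. It held 10092, 10624 and 8959 RPM in WT resting and 5232, 4345 and 4185 in WT LPS+IL4 libraries (−1.11 ± 0.18, adjusted p = 2.5e-04), and went from 10227, 10772 and 9437 to 3947, 4710 and 4141 in the mutant (−1.25 ± 0.18, adjusted p = 6.5e-05). The groups were far apart in both genotypes, and this bin kept its call in every alternative run. Next to it lies the bin of Fos, Jdp2 and Batf, chr12:85000001-86000000, which had the highest mean of all bins. It lies outside the naming rule and was chosen after its values were seen, as a bin called in both genotypes. It held 12156, 12340 and 10963 in WT resting and 6950, 6379 and 5704 in WT LPS+IL4 libraries (−0.90 ± 0.18, adjusted p = 0.0014), and went from 12639, 9817 and 9483 to 4521, 6021 and 4844 in the mutant (−1.05 ± 0.18, adjusted p = 3.4e-04). The bin of Rad51b, a homologous recombination gene, and Zfyve26 (chr12:79000001-80000000) went from 8054, 7780 and 6721 to 4528, 4702 and 3157 in the WT (−0.86, adjusted p = 0.0059) and from 9917, 8925 and 7326 to 4441, 3745 and 3219 in the mutant (−1.20 ± 0.22, adjusted p = 5.0e-04). On covered ends its mutant change was −0.33 (adjusted p = 0.117). As a share of the library's covered ends, 6 of the 8 falling bins of the WT were called lower too, and 3 of the 8 of the mutant.

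Some calls were made in a single genotype, and none of these differences between genotypes was called in the test of the interaction. The bin of Nfkbia, the inhibitor of NF-κB, and Ralgapa1 (chr12:55000001-56000000) held 4685, 7225 and 3506 in WT resting and 2511, 2545 and 1711 in WT LPS+IL4 libraries (−1.19 ± 0.29, adjusted p = 0.0059), whereas the mutant change was −0.18 (adjusted p = 0.777). On covered ends the WT change was −0.49 (adjusted p = 0.0726). The bin of Synj2bp and Med6, itself a gene of a Mediator subunit (chr12:81000001-82000000), went from 4984, 5276 and 4106 to 2684, 1877 and 1434 in the mutant (−1.26 ± 0.30, adjusted p = 0.0051), against −0.29 in the WT (adjusted p = 0.548). On covered ends the mutant change was −0.37 (adjusted p = 0.159).

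The bins that rose in the WT lay in the part of the region nearest to the bait. The bin of Kcnk10, Spata7, Ptpn21 and Gpr65 (chr12:98000001-99000000) held 1271, 2098 and 1434 RPM in WT resting and 5299, 3705 and 2819 in WT LPS+IL4 libraries (1.30 ± 0.34, adjusted p = 0.0079), with a mutant change of 0.84 (adjusted p = 0.122). The WT call did not hold without WT LPS+IL4 replicate 1 (1.03, adjusted p = 0.0615). The partial bin at the edge of the region, chr12:103000001-103426024, with Prima1, Asb2 and Otub2, went from 1221, 511 and 606 to 1797, 1734 and 2425 in the WT (1.35 ± 0.36, adjusted p = 0.0079) and differed by 0.18 in the mutant (adjusted p = 0.808). The bin of Gtf2a1, a general transcription factor gene, and Sel1l, a gene of endoplasmic reticulum protein degradation (chr12:91000001-92000000), rose in both genotypes. It too was chosen after its values were seen. It went from 1966, 2062 and 893 to 2949, 4097 and 3470 in the WT (1.10 ± 0.31, adjusted p = 0.0112) and from 2402, 1759 and 2753 to 4384, 5102 and 4978 in the mutant (1.07 ± 0.31, adjusted p = 0.0212), without overlap in either. Its WT call did not hold without WT LPS+IL4 replicate 2 (0.97, adjusted p = 0.0668) or WT resting replicate 3 (0.80, adjusted p = 0.051), and its mutant call not without mutant resting replicate 2 or mutant LPS+IL4 replicate 2 or 3. In these rising bins more of the listed ends were covered as well, without overlap: 5.63 to 14.3% in the Kcnk10 bin of the WT, 5.47 to 14.3% in the Prima1 bin of the WT, and 5.62 to 13.0% in the WT and 5.62 to 19.4% in the mutant in the Gtf2a1 bin. This measure is not scaled, and LPS+IL4 libraries covered more far ends (means of 3669 and 4502 in the WT, 3376 and 5145 in the mutant). Among bins whose reads fell it rose in some, such as the Rad51b bin of the mutant (11.0 to 13.4%), and fell in others. As a share of chromosome 12 covered ends the log2 changes were 0.90 (Kcnk10), 0.94 (Prima1), and 0.80 and 1.14 (Gtf2a1, WT and mutant), with adjusted p at most 0.0076 in limma.

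Between genotypes at rest 2 far bins were called, both higher in the mutant, with 2.52% of all tested bins called, 1.68% higher and 0.84% lower. The Prima1 bin held 2854, 2143 and 1773 RPM in mutant resting libraries against 1221, 511 and 606 in the WT (1.53 ± 0.36, adjusted p = 0.0125). The bin chr12:89000001-90000000, with no protein-coding gene and 165 listed ends, held 1545, 948 and 732 against 255, 34.1 and 135 (2.92 ± 0.69, adjusted p = 0.0125). Its reads rested on few ends: a library covered 4 to 36 of them, and the largest end held a median of 40.0% of the bin's reads (19.2 to 82.3%). With the library set as a block the differences were 1.60 (adjusted p = 0.0064) and 2.91 (adjusted p = 0.0104). On covered ends the Prima1 bin differed by 0.46 (adjusted p = 0.339) and the other by 1.17 (adjusted p = 0.0228). Neither call held without mutant resting replicate 1 (adjusted p = 0.075 for the Prima1 bin and 0.0741 for the other) or without WT resting replicate 2 (0.0852 for each). The Prima1 call was also lost with only the compared groups fitted (adjusted p = 0.0786). The resting libraries compared here also enter the comparisons between days. After LPS+IL4 edgeR called 0 far bins between genotypes (2 at unadjusted p under 0.05, smallest adjusted p = 0.478), and the interaction gave 0 (7 at unadjusted p under 0.05, smallest adjusted p = 0.659). 

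Around single genes the reads were summed over the gene and 100 kb on each side. Over all 534 protein-coding genes that could be measured the median was 184 RPM per 100 kb, averaged over the 12 libraries. It was 449 (48.1 to 1085) over 15 lymphocyte genes and 429 (79.2 to 778) over 10 housekeeping genes, and 42.3 (15.3 to 147) over 15 genes known for roles in development. The lists were chosen with earlier results of these data known, neighbouring windows overlap, and the values are a description. The covered share of listed ends did not follow this order, with medians of 10.1% over all genes and 10.3, 10.2 and 10.8% over the lists. Mycn, a proto-oncogene of neural precursors, had the lowest window of the developmental list and Esrrb, a nuclear receptor gene of early development, the highest.

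**Figure D5:**
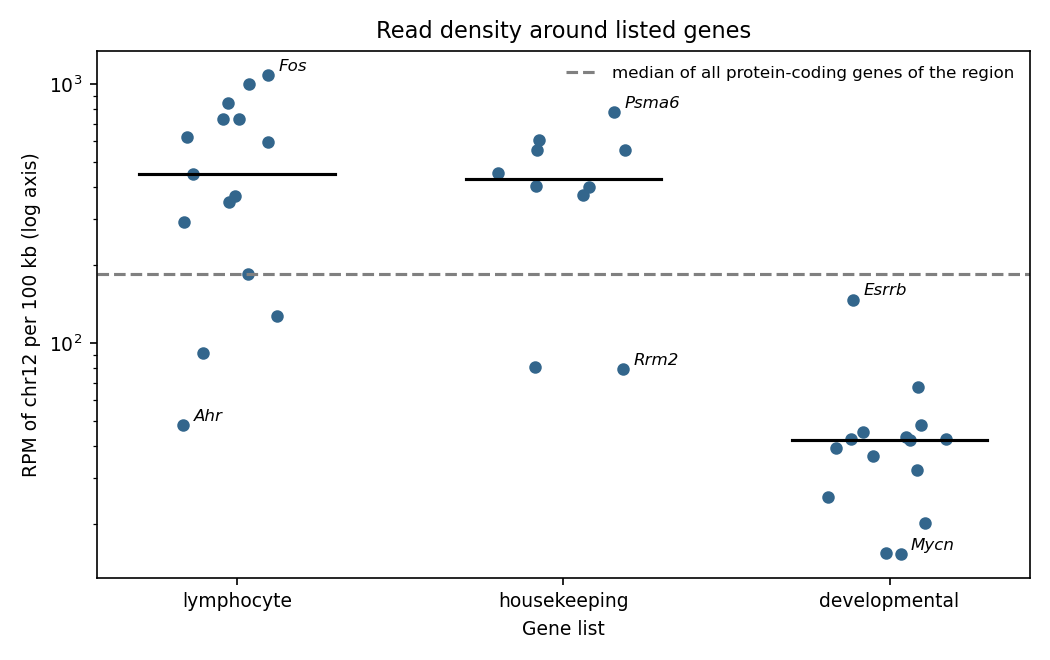
RPM of chromosome 12 reads per 100 kb (log axis), mean over 12 libraries, in windows of 100 kb on each side of the genes of 3 lists; each point is a gene, the bar is the list's median and the dashed line the median of all protein-coding genes of the region. Medians are 449 for lymphocyte, 429 for housekeeping and 42.3 for developmental genes, and the highest developmental gene, Esrrb at 147, lies below the dashed line at 184.

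With culture, 107 of 534 windows (20%) were lower without overlap between the groups in the WT and 50 (9.36%) higher. In the mutant 111 (20.8%) were lower and 33 (6.18%) higher. Of the 15 lymphocyte genes 5 were lower and 4 higher in the WT, and 4 lower and 2 higher in the mutant. Of the 10 housekeeping genes 3 were lower and none higher in the WT, and 1 lower and 1 higher in the mutant. Of the 15 developmental genes none was lower and 1 higher in the WT, and 2 lower and 1 higher in the mutant. The median log2 change over all windows was −0.39 in the WT and −0.46 in the mutant. It was −0.22 and −0.27 over the lymphocyte list, −0.13 and −0.03 over the housekeeping list and −0.15 and −0.54 over the developmental list.

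Fos, an immediate early gene of B cell receptor signalling (chr12:85473890-85477274), had the highest window of the lymphocyte list. It held 4359, 4629 and 3496 RPM in WT resting and 851, 1344 and 873 in WT LPS+IL4 libraries, a log2 difference of −2.02. In the mutant it held 3204, 2840 and 2001 at rest and 722, 873 and 1287 after culture (−1.48). Batf, which lies nearby and encodes a factor needed for class switching, overlapped between the days in both genotypes, with means of 1235 and 1516 in the WT and 1139 and 1392 in the mutant. Gpr65, a proton-sensing receptor gene (chr12:98268635-98276722), moved the other way. Its window held 129, 74.1 and 442 in WT resting and 1560, 1247 and 815 in WT LPS+IL4 libraries (2.48), and 326, 681 and 101 against 1277, 1237 and 844 in the mutant (1.60). Neither genotype's days overlapped at Fos or Gpr65.

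Windows of other lymphocyte genes differed between the days in either direction. The window of Zfp36l1, which encodes an mRNA decay factor of B cells, had means of 2523 at rest and 1018 after culture in the WT, and 1488 and 956 in the mutant. That of Rad51b had 5884 and 3261 in the WT and 6782 and 2876 in the mutant. The window of Nfkbia was lower without overlap in the WT (2276 against 973) and overlapped in the mutant (1345 against 1359). The window of Foxn3, a forkhead gene 10 to 20 Mb from the bait, had 3847 and 5653 in the WT and 3567 and 6350 in the mutant. No test was made of single windows.

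Few single ends recurred in every library. Of the 35088 far ends 127 were listed in all 18 libraries, and they carried a mean of 5.14% of far reads. They were spread over 61 bins, and 26.8% of them lay in gene-rich bins, against 69.6% of all listed far ends. The end at chr12:32779026-32779049, 41.3 kb from Nampt, a gene of NAD synthesis, held 0.919% of far reads on average (0.578 to 1.49 over 12 libraries). The end at chr12:102736554-102736577, 3.28 kb from Gm20604, held 0.773%, and that at chr12:7942369-7942392, 35.3 kb from the apolipoprotein gene Apob, held 0.298%. Without the 127 ends the gene-rich share of far reads was still lower in the mutant (−2.36 points, adjusted p = 0.02).

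After LPS alone the genotypes could be compared only by covered ends. The exact permutation test of 3 libraries against 3 cannot go below p = 0.1, so none of the measures below could have passed it. The far region held 40.6 ± 0.759% of the covered ends of chromosome 12 in the mutant and 40.5 ± 1.75% in the WT (n = 3, exact p = 1.0). The log2 ratio to the 1 to 10 Mb zone was 1.98 in the mutant and 1.91 in the WT (exact p = 0.3). The slope was −0.751 ± 0.0452 in the WT and −0.715 ± 0.0286 in the mutant (exact p = 0.5), and the gene-rich share of covered far ends 61.9 ± 1.72% and 60.5 ± 2.24%. Limma called 0 of 99 far bins on log2 covered shares (2 at unadjusted p under 0.05, smallest adjusted p = 0.975), and edgeR on the covered ends called 0 as well. The LPS libraries were aligned with another tool and listed without counts, so their covered ends are not compared with those of the other groups. By covered ends over all 3 culture conditions no genotype difference passed the test (adjusted p between 0.307 and 0.821).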

How the data were processed

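4C-seq libraries of splenic B cells were aligned to mm10 with Bowtie (resting and LPS+IL4) or Bowtie2 (LPS), per the submitters' processing notes; versions and filters are not given in the sources used here. The 12 resting and LPS+IL4 files hold deposited read counts per 24-bp fragment end. The 6 LPS files, as deposited, list the coordinates of covered ends without counts. Coordinates are 1-based.

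The 5 kb on either side of the bait were omitted, and the library size (the total behind RPM) was the remaining chromosome 12 reads, without TMM factors. Counts per 1 Mb bin (mean of at least 10 reads) and per zone were tested with edgeR 4.0.16 (quasi-likelihood, robust, 12 libraries in 4 groups); limma 3.58.1 was fitted to log2 covered shares (pseudocount 1) of the LPS libraries. Bins and zones of the whole chromosome were tested together, with Benjamini-Hochberg adjustment and a threshold of 0.05. Values per library were compared by two-sided exact permutation within genotype or day, adjusted over 20 tests. The slope used a pseudocount of 0.5 reads. DESeq2 1.42.0, other scalings, bin sizes, gene definitions, equal depth, a replicate block, library sets and leaving out each library were tried. The scripts were tested on simulated data, under R 4.3.3 and Python 3.11.15.

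Up to 5 called bins per comparison were named, those with the largest log2 change and no overlap between groups, with the genes nearest the bin's centre. Genes were placed by RefSeq GRCm38.p6. The members, lists and tests were chosen with earlier results of these data known.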

Additional observations from a re-analysis of the deposited data

How the results depend on the processing

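No result past its threshold as reported changed direction under any alternative run. The far share of covered ends between days, called only under alternatives, did change direction. It was lower at equal depth and without mutant LPS+IL4 replicate 2 (−3.43 and −3.11 points, both called). As a share of all covered ends of the library it was higher (0.249 points, not called). Among the values and counts that answer a comparison, 623 alternative values kept their direction and side of the threshold or stayed near the reported value, 22 lost the call, 5 gained one, 16 moved and 6 changed sign. For the named bins and zones the numbers were 985 kept, 60 lost, 17 gained and 35 of changed sign.

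The values that changed sign were not called. At equal depth the gene-rich share of covered far ends differed by 0.0795 points between days. As a share of all covered ends of the library, the far share differed by 0.249 points between days and by −0.0255 between genotypes over 3 conditions. Within library set 1, where no test was made, the gene-rich share of covered far ends was 0.365 points higher in the mutant, against −0.806 over both sets. Between genotypes at rest, the 20 to 30 Mb zone was −0.051 with TMM, −0.11 with far reads as library size and −0.027 with DESeq2, the 50 to 75 Mb zone 0.092 with the library set as a block, and the zone beyond 75 Mb −0.025 with far reads as library size. After LPS+IL4 that library size gave −0.0079, −0.029 and −0.012 for 20 to 30, 30 to 50 and over 75 Mb. The interaction at 20 to 30 Mb was 0.11 with TMM, 0.11 with far reads, 0.064 with DESeq2, 0.099 with capped ends and 0.058 on covered ends. At 30 to 50 Mb it was 0.034 on covered ends, and beyond 75 Mb 0.018 with TMM, 0.013 with far reads, 0.010 with capped ends and 0.10 on covered ends. Leaving out each library gave sign changes in the genotype difference of the ratio of reads (−0.048 to 0.0048) and, over 3 conditions, of covered ends (−0.036 to 0.0072). It did so for zones at rest at 20 to 30 Mb (−0.052 to 0.13) and 50 to 75 Mb (−0.14 to 0.085). After LPS+IL4 it did so at 10 to 20 (−0.075 to 0.15), 20 to 30 (−0.028 to 0.086), 30 to 50 (−0.087 to 0.14), 50 to 75 (−0.072 to 0.31) and over 75 Mb (−0.0087 to 0.072), and for the interaction at 20 to 30 (−0.094 to 0.083) and 50 to 75 Mb (−0.043 to 0.34).

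With ends capped at the 99th percentile, the fall of the far share of reads between days was −2.77 points. As a share of all reads, an alternative chosen after seeing the data, it was −0.584. Thinned to equal depth, the far share of covered ends fell with culture (−3.43 points, adjusted p = 0.02, against −2.16 and 0.307 without thinning). The genotype difference of the gene-rich share was −2.29 with only the most and least gene-rich bins and −2.41 with genes of any type. Within library set 1 the genotype difference of slope was −0.231 for reads and −0.107 for covered ends.

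Whether the replicate numbers pair the libraries is not known. The titles repeat a number on both days, and same-numbered resting and LPS+IL4 libraries of a genotype fell in the same library set. Deviations of same-numbered libraries had weak correlations, −0.146 to 0.185 over 101 bins, which cannot show that they are unpaired. With the replicate block, where 6 pairs allow no p below 0.03125 and no adjusted p below 0.05 was reached, the changes with culture were −3.53 points for the far share, −0.62 and −0.56 for the ratios of reads and covered ends, and −0.372 and −0.240 for the slopes; the gene-rich share differed by −2.27 points between genotypes. The block gave 5 far zones in the mutant between days, 1 between genotypes at rest and 1 for the interaction. The library set as a block gave 5, 2 and 1. With far reads as library size, 3 far zones were called in the WT.

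On covered ends 27 far bins were called in the WT between days, 1 between genotypes at rest and 1 for the interaction, chr12:59000001-60000000 (0.91 ± 0.20, adjusted p = 0.0491). With only the compared groups fitted, 1 bin was called between genotypes at rest. Of the 24 bin calls, all 24 had the same sign on covered ends, 16 were called there and 9 were called in every alternative.

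Leaving out each library in turn, the change with culture ranged from −4.02 to −3.00 points for the far share of reads, −3.11 to −1.38 for that of covered ends, −0.64 to −0.60 and −0.60 to −0.53 for the ratios, −2.05 to −1.21 points for the gene-rich share, and −0.400 to −0.353 and −0.259 to −0.219 for the slopes. The genotype difference ranged from −2.65 to −1.84 points for the gene-rich share and from −0.166 to −0.117 and −0.0745 to −0.0349 for the slopes. Far bins called ranged from 8 to 14 in the WT, 7 to 10 in the mutant and 0 to 3 between genotypes at rest, and far zones from 0 to 1 at rest. Causes of these changes were not tested. Most far ends were seen in a single library, which limits statements on single ends.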
